A study of Mus musculus with 3 samples.

Results

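The genes described here are 10 mouse genes of the integrated stress response and of the endoplasmic reticulum (ER) stress response: *Atf4*, *Atf5*, *Ddit3*, *Trib3*, *Asns*, *Chac1*, *Sesn2*, *Atf6*, *Xbp1* and *Nupr1*. They were chosen by symbol, and all 10 were found among the 22698 Ensembl genes measured. The measurements are RNA-seq of melan-a cells, an immortalized line of pigmented mouse melanocytes on a C57BL/6J background that the labels describe as derived from Ink4a-ARF-/- animals. There was 1 group with no added treatment, grown in RPMI 1640 at 37°C with 10% fetal bovine serum, 200 nM of the phorbol ester TPA and 200 pM cholera toxin, and its 3 replicates are labelled 1, 3 and 4. These additives were present in every replicate, so no unstimulated or stressed cells were available for comparison, and the values describe levels in culture and their spread. No test was applied, because the 10 genes were chosen with earlier results on these replicates known.

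When amino acids or heme run short, unfolded proteins build up in the ER, or viral RNA is sensed, kinases phosphorylate the translation factor eIF2 on its alpha subunit. General translation falls, while the messages of *Atf4*, *Atf5* and *Ddit3*, which carry upstream open reading frames, are translated more efficiently. The level of these messages and the amount of protein can therefore move apart, and RNA-seq reports only the messages. ATF4 is a bZIP transcription factor that induces genes for amino acid supply and, with *Ddit3* (CHOP), genes that limit or end the response. ATF6 and XBP1 belong to other arms of the ER stress response. ATF6 is released from the ER membrane by cleavage and XBP1 is made from a message that IRE1 splices in the cytoplasm, so neither activity can be read from the level of the message. Melanocytes load large amounts of glycoprotein into melanosomes through the ER.

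ATF4 and its C/EBP partners bind a composite element known as the C/EBP-ATF response element (CARE). Promoters from 250 bases before to 50 bases after the transcription start were taken from RefSeq for 9 of the 10 genes, with 2 starts for *Atf5*, and each was placed on mm9 by an exact match. *Atf6* was not matched. The letters TGATGNAA were found on either strand in 4 of these 10 promoters, against 3.97% of all 32851 promoters of this length in the table. The sites are shown for *Asns*, *Chac1*, *Trib3* and *Nupr1*, the genes that hold them. They are written 5′ to 3′ on the strand of the gene, with the matched letters in capitals and with positions counted from the RefSeq start, negative before it.
*Asns*, positions -23 to -16, minus strand of chr6:7643210-7643252: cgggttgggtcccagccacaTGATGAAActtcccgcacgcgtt
*Chac1*, positions -193 to -186, plus strand of chr2:119176765-119176812: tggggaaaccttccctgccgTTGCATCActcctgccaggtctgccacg
*Nupr1*, positions -110 to -103, minus strand of chr7:133769067-133769114: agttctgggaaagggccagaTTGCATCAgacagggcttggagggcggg
*Trib3*, positions 15 to 22, minus strand of chr2:152169764-152169793: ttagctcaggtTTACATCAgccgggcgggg
In *Chac1*, *Nupr1* and *Trib3* the element reads in the opposite direction to the gene. The ER stress element, CCAAT and CCACG with 9 free bases between them, and the unfolded protein response element TGACGTGG, also searched on both strands, were in none of the 10 promoters, against 0.119% and 0.676% of all promoters. A match is a description of letters in this window and does not show binding. The 10 genes were chosen as stress response genes, some of which act under ATF4, so the shares are no test of that link.

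All 10 genes had at least 1 FPKM (reads per kilobase of gene and per 1000000 reads of the library, scaled by the authors) in every replicate, compared with 44.1% of all genes. Among the highest 1000 genes by mean FPKM were 3 of them, *Atf4*, *Atf5* and *Asns*, compared with 4.41% of all genes, and the lowest mean in that category was 66.0 FPKM. The median of the 10 means was 23.8 FPKM, against 0.277 FPKM over all genes. They spanned a wide range, from *Atf4* at rank 203 to *Nupr1* at rank 6559 as deposited. With the lengths of the longest coding transcripts, described below, *Atf4* ranked 311 and *Nupr1* 3925, and *Trib3* was the lowest at rank 5461.

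**Figure D1:**
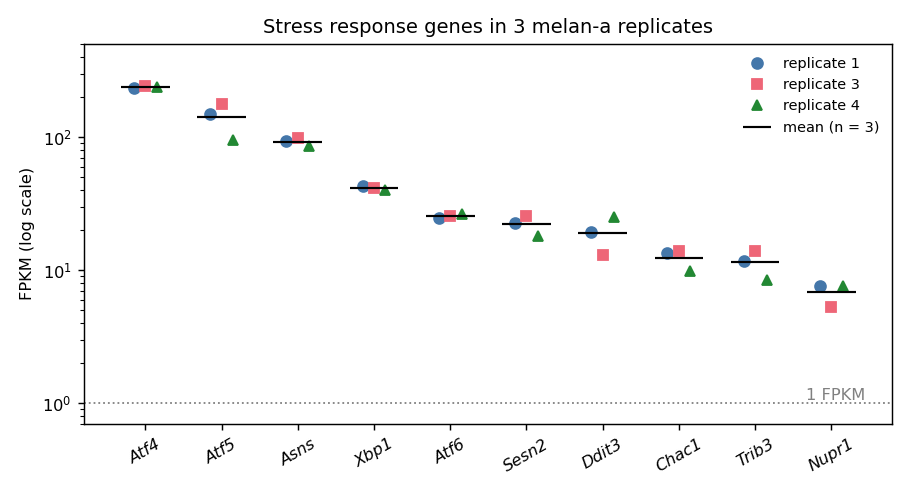
FPKM (log axis) of the 10 stress response genes in replicates 1, 3 and 4 of melan-a cells, with the mean of the 3 as a horizontal line and 1 FPKM as a dotted line. *Atf4* is highest in every replicate, and *Atf5* and *Ddit3* have widely separated points in opposite directions.

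Of the 3 transcription factors whose messages are controlled by upstream open reading frames, *Atf4* (ENSMUSG00000042406, chr15:80085614-80087970, plus strand, mm9) was the most abundant. It had 235.07, 241.12 and 235.96 FPKM in replicates 1, 3 and 4, a mean of 237 ± 3.27 FPKM (SD, n = 3). This was the narrowest spread of the 10 genes. Its coefficient of variation (CV, SD over mean) was 1.38%, and 1.61% of the 10011 genes with at least 1 FPKM in every replicate had a lower one. *Atf5* (ENSMUSG00000038539, chr7:52067627-52072028, minus strand), the closest relative of *Atf4* and a factor linked to mitochondrial and proteotoxic stress, had 148.68, 177.29 and 95.63 FPKM in replicates 1, 3 and 4, a mean of 141 ± 41.4 FPKM (SD, n = 3). Replicate 4 was well below the others, and the rank of *Atf5* went from 312 in replicate 3 to 546 in replicate 4. *Ddit3* (ENSMUSG00000025408, chr10:126727830-126733344, plus strand), which encodes the pro-apoptotic factor CHOP, had 19.25, 13.09 and 25.04 FPKM, a mean of 19.1 ± 5.98 FPKM (SD, n = 3). Its order was the reverse of that of *Atf5*, with replicate 4 highest and replicate 3 lowest. The CVs of *Atf5* and *Ddit3* were 29.5% and 31.2%, above those of 94.5% and 95.4% of the genes with at least 1 FPKM.

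Because both genes of a pair are measured in the same library, ratios within a replicate cancel what scales all genes of a library alike, but not a trend on gene composition. *Atf5* stood to *Atf4* at 0.632, 0.735 and 0.405 in replicates 1, 3 and 4, so *Atf4* was higher in 3 of 3 replicates. With the trend on GC content removed, as described below, these ratios were closer together, at 0.609, 0.664 and 0.466. *Ddit3* stood to *Atf4* at 0.0819, 0.0543 and 0.106. CHOP message was thus a small fraction of *Atf4* message in every replicate, with a mean ratio of 0.0808 ± 0.0259 (SD, n = 3), or 0.155 with the transcript lengths described below.

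Of the 5 genes among the 10 that act under ATF4 and CHOP, *Asns* stood far above the others. *Asns* (ENSMUSG00000029752, chr6:7625169-7643254, minus strand), which encodes asparagine synthetase, had 93.67, 98.57 and 84.88 FPKM in replicates 1, 3 and 4, a mean of 92.4 ± 6.94 FPKM at rank 643. It stood to *Atf4* at 0.389 ± 0.0259 (SD, n = 3), with the 3 replicates between 0.360 and 0.409. With the trend on GC content removed, as described below, the replicates were further apart, at 0.401, 0.468 and 0.312. *Sesn2* (ENSMUSG00000028893, chr4:132047947-132066416, minus strand), a leucine sensor that restrains mTORC1, had 22.73, 25.61 and 18.16 FPKM, a mean of 22.2 ± 3.76 FPKM. *Chac1* (ENSMUSG00000027313, chr2:119176965-119180117, plus strand) encodes an enzyme that degrades glutathione and had 13.49, 13.79 and 9.76 FPKM, a mean of 12.3 ± 2.25 FPKM. Replicate 4 was the lowest for all of these genes. *Trib3* (ENSMUSG00000032715, chr2:152163158-152169768, minus strand), a pseudokinase that is induced by ATF4 with CHOP and feeds back on both, had 11.79, 13.94 and 8.49 FPKM, a mean of 11.4 ± 2.75 FPKM. *Nupr1* (ENSMUSG00000030717, chr7:133766763-133770524, minus strand), a small chromatin-associated stress protein, had 7.59, 5.29 and 7.56 FPKM, a mean of 6.81 ± 1.32 FPKM. *Nupr1* was lowest in replicate 3, unlike *Asns*, *Sesn2*, *Chac1* and *Trib3*, which were highest there. *Trib3* and *Ddit3* ran in opposite directions, and their ratios in replicates 1, 3 and 4 were 0.612, 1.06 and 0.339, a change of 3.14 times between replicates of the same cells. The mean ratio was 0.672, or 0.366 with the transcript lengths described below.

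The ER stress factors varied little as deposited. *Xbp1* (ENSMUSG00000020484, chr11:5420662-5425896, plus strand) had 42.88, 41.38 and 40.10 FPKM in replicates 1, 3 and 4, a mean of 41.5 ± 1.39 FPKM and a CV of 3.36%. *Atf6* (ENSMUSG00000026663, chr1:172634588-172797902, minus strand) had 24.82, 25.38 and 26.33 FPKM, a mean of 25.5 ± 0.763 FPKM and a CV of 2.99%. Less than 10% of the genes with at least 1 FPKM had a lower CV than either, 9.22% for *Xbp1* and 7.49% for *Atf6*. *Xbp1* was higher than *Atf6* in 3 of 3 replicates, by a mean ratio of 1.63 ± 0.102, or 2.48 with the transcript lengths described below. With the trend on GC content removed, the ratios were 1.72, 1.40 and 1.78 in replicates 1, 3 and 4 (SD 0.209). FPKM per gene combines spliced and unspliced *Xbp1* messages.

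**Figure D2:**
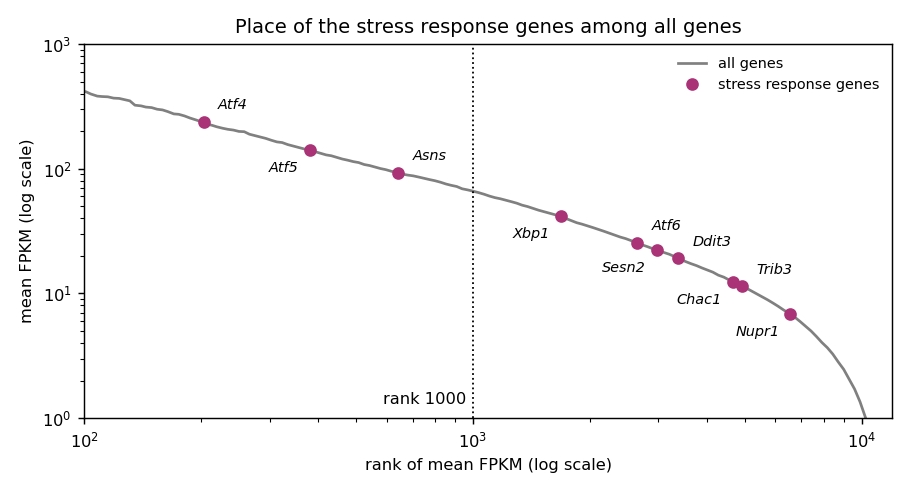
Mean FPKM (log axis) against rank (log axis) for genes from rank 100 down to those near 1 FPKM, drawn as a line, with the 10 stress response genes as points and rank 1000 as a dotted line. *Atf4*, *Atf5* and *Asns* lie within the highest 1000 genes and the other 7 lie between ranks 1683 and 6559.

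In the order of the means (*Atf4*, *Atf5*, *Asns*, *Xbp1*, *Atf6*, *Sesn2*, *Ddit3*, *Chac1*, *Trib3*, *Nupr1*), neighbours were regarded as apart only where their replicate ranges did not overlap. *Atf4* and *Atf5*, *Asns* and *Xbp1*, *Xbp1* and *Atf6*, and *Trib3* and *Nupr1* were apart. The ranges overlapped for *Atf5* and *Asns*, although *Atf5* was higher in 3 of 3 replicates, and for each neighbouring pair from *Atf6* down to *Trib3*, where the upper gene was higher in 2 of 3 replicates. Neighbours among those 5 genes therefore have no firm order in deposited FPKM. With the trend on GC content removed, as described below, the ranges of *Atf5* (119 to 149 FPKM) and *Asns* (79.7 to 105 FPKM) did not overlap. Nor did those of *Atf6* (23.8 to 28.1 FPKM) and *Sesn2* (21.4 to 22.3 FPKM). The other overlaps remained. The order also rests on the length by which reads were divided. The annotation joins 2452 exon bases for *Nupr1* and 1713 for *Ddit3*, while their longest coding transcripts have 829 and 890 bases. Dividing by the latter gave means of 20.2 FPKM for *Nupr1* and 36.8 FPKM for *Ddit3*, 2.96 and 1.92 times the deposited values, and would place *Ddit3* above *Atf6* and *Nupr1* above *Chac1*. *Xbp1* came to 63.2 FPKM (1.53 times) and *Asns* to 125 FPKM (1.36 times), and the other genes moved by at most 1.10 times. Length does not affect the spread between replicates.

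Read numbers were not the limit for these genes. Estimated from FPKM, exon length and the recovered library size, they ranged from 610 reads for *Nupr1* in replicate 3 to 26930 reads for *Atf4* in replicate 4. Counting error alone would give CVs from 0.669% for *Atf4* to 3.28% for *Nupr1*. The observed CV was 2.06 times the counting value for *Atf4*, 2.88 times for *Xbp1*, 3.05 times for *Atf6*, 13.5 times for *Ddit3* and 35.9 times for *Atf5*. The spread of *Atf5* and *Ddit3* was thus far larger than counting gives.

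With each replicate left out in turn, the CV was 12.4% (without replicate 4) to 42.3% (without replicate 1) for *Atf5* and 11.8% to 34.4% for *Trib3*, in the same order. It was 18.5% (without replicate 3) to 44.3% (without replicate 1) for *Ddit3*. Without replicate 4 the CV was 8.43% for *Sesn2* and 1.56% for *Chac1*, and without replicate 3 it was 0.280% for *Nupr1*. With 3 values, leaving out the one farthest from the others always narrows the SD, though not always the CV. The CV of *Atf4* was 0.267% without replicate 3, and it was 2.49% and 3.89% after rescaling each replicate to the median of genes with at least 1 FPKM and to a common sum.

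The CV was above 10% for 6 of the 10 genes, against 56.3% of genes with at least 1 FPKM, and above 20% for 3 of them (*Atf5*, *Ddit3* and *Trib3*), against 19.7%. Replicate 3 was highest and replicate 4 lowest for *Atf5*, *Asns*, *Sesn2*, *Chac1* and *Trib3*, 5 of 10, against 39.5% of genes, and the reverse order was seen for *Ddit3* alone, against 37.2%. Both orders are common among all genes, and the shares do not set these genes apart. Across the 10006 genes with at least 1 FPKM and a known sequence, the log2 ratio of replicate 3 to replicate 4 rose with the GC content of the longest coding transcript (Spearman's rho 0.78 across genes, which share the same libraries). Apart from *Atf6* and *Asns*, the genes lie on the GC-rich side of this set. Their transcripts have 45.8% (*Atf6*) to 61.7% (*Atf5*) GC with a median of 55.3%, compared with 50.5% for all these genes.

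**Figure D3:**
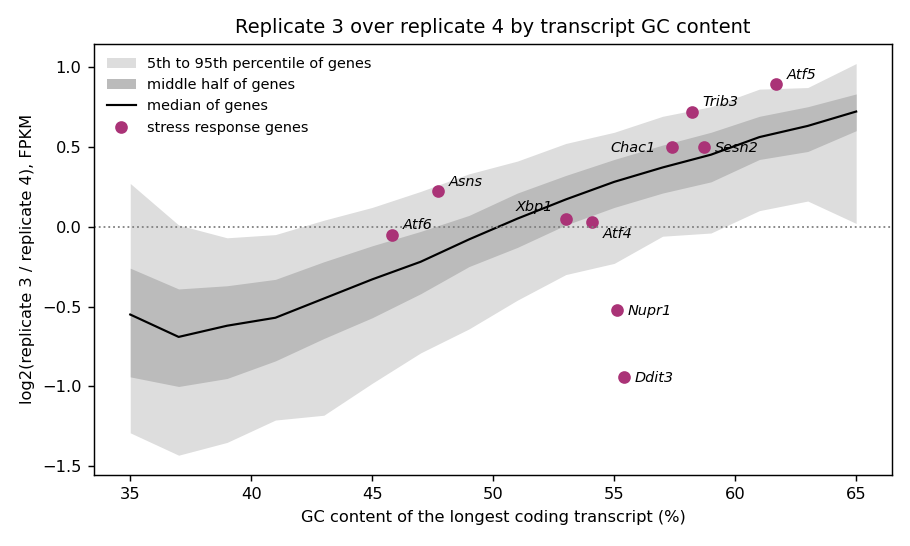
Log2 ratio of FPKM in replicate 3 to replicate 4 against transcript GC content in percent. The line and bands show the median, the quartile range and the 5th to 95th percentiles of all genes with at least 1 FPKM, in bins of 2 percentage points that hold 20 genes or more, and points are the 10 stress response genes. *Atf5*, *Trib3*, *Sesn2* and *Chac1* rise with the trend, while *Ddit3* (-0.94) and *Nupr1* (-0.52) lie far below it.

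The log2 ratio of replicate 3 to replicate 4 was 0.89 for *Atf5*, 0.72 for *Trib3*, 0.50 for *Sesn2* and 0.50 for *Chac1*, all genes of 57.4% GC or more. It was -0.94 for *Ddit3* and -0.52 for *Nupr1*, at 55.4% and 55.1% GC. *Ddit3* and *Nupr1* thus went against the direction of genes of like transcript GC content, whose median was 0.28 between 54% and 56% GC. For these genes the transcript covers 890 of 1713 (*Ddit3*) and 829 of 2452 (*Nupr1*) joined exon bases. The GC content of the remaining exon bases was not examined.

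The trend of each replicate on GC content was then removed with a smoothed curve fitted to all genes with at least 1 FPKM. The spread of several genes shrank. The CV fell from 29.5% to 11.5% for *Atf5*, from 24.1% to 10.6% for *Trib3*, from 18.2% to 8.28% for *Chac1* and from 16.9% to 2.31% for *Sesn2*. It widened for *Ddit3*, from 31.2% to 40.6%, and for *Nupr1*, from 19.4% to 26.6%. It widened also for *Atf4* (1.38% to 6.74%), *Atf6* (2.99% to 8.78%), *Asns* (7.51% to 13.5%) and *Xbp1* (3.36% to 4.77%). The median CV of all genes fell from 11.4% to 7.24%, so *Atf6* was above the median after removal and below it before. The near-constant levels of *Atf4* and *Atf6* as deposited thus depend on leaving the GC trend in place. After removal, 5 of the 10 genes had a CV above 10%, against 32.7% of genes, and *Ddit3* and *Nupr1* had a CV above 20%, against 6.31%.

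Without the trend, *Ddit3* had 19.1, 11.9 and 27.8 FPKM in replicates 1, 3 and 4. Its log2 ratio of replicate 3 to 4 was -1.22, and 0.360% of the 10006 genes had a lower one. *Nupr1* had 7.53, 4.83 and 8.34 FPKM, a log2 ratio of -0.79, and 1.97% of genes were lower. These were the genes of the 10 with the strongest fall from replicate 4 to replicate 3. The trend removed from them was set by the GC content of the longest coding transcript, a part of their exons. *Atf5* had 142, 149 and 119 FPKM, a log2 ratio of 0.32, and 9.64% of genes had a higher one. *Asns* had 93.9, 105 and 79.7 FPKM, with a ratio of 0.39, and *Trib3* had 11.5, 12.2 and 9.90 FPKM, with a ratio of 0.30. Replicate 3 was highest and replicate 4 lowest for *Atf5*, *Asns*, *Atf6*, *Sesn2* and *Trib3*, 5 of the 10 genes, against 31.9% of genes. The reverse held for *Atf4*, *Ddit3* and *Nupr1*, against 29.7%. *Atf6* had thus joined the genes highest in replicate 3 and lowest in replicate 4, and *Chac1* had left them. The ratio of *Trib3* to *Ddit3* was still 0.604, 1.03 and 0.356, a change of 2.88 times. What differed between the cultures or libraries labelled 3 and 4 was not tested.

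**Figure D4:**
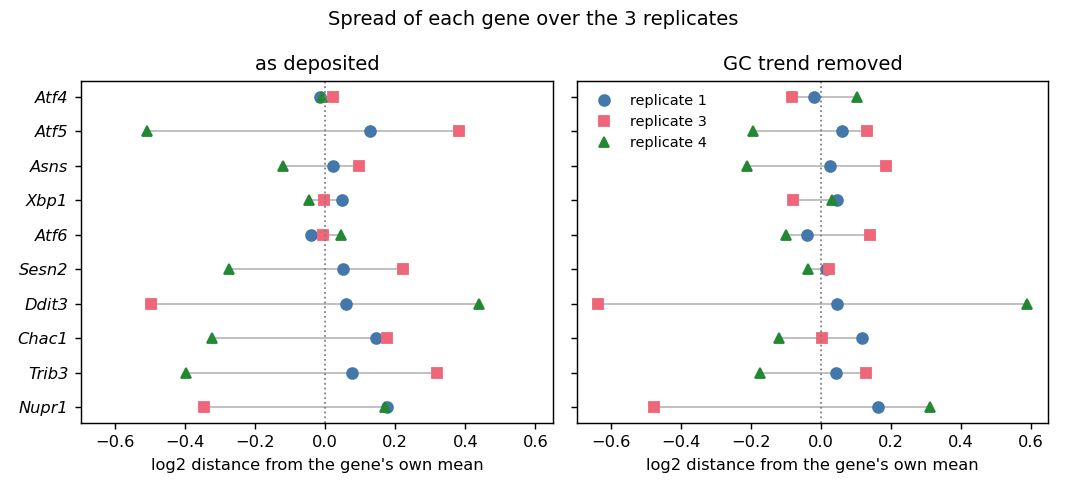
Log2 distance of replicates 1, 3 and 4 from the mean of each gene over the replicates, as deposited (left) and with the trend on GC content removed (right). On the right *Sesn2*, *Atf5*, *Chac1* and *Trib3* draw together, while *Ddit3* and *Nupr1* spread further, with replicate 3 lowest.

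Paralogs gave a check on which family members carried the message. *Atf6b*, the paralog of *Atf6*, had a mean of 42.4 ± 7.49 FPKM and stood to *Atf6* at 1.67 ± 0.328 (SD, n = 3), higher in 3 of 3 replicates. *Sesn3* (9.33 ± 1.02 FPKM) and *Sesn1* (8.04 ± 1.01 FPKM) were both below *Sesn2*. *Trib1* had 4.75 ± 0.735 FPKM, and *Trib2* was nearly silent at 0.0733 ± 0.0252 FPKM. *Chac2*, the constitutive relative of *Chac1*, had 2.41 ± 0.308 FPKM. In deposited FPKM, *Sesn2*, *Trib3* and *Chac1* were thus the most abundant of the sestrin, tribbles and CHAC genes measured. The lengths of the longest coding transcripts were not applied to the paralogs.

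Upstream of the 10 genes, all 4 eIF2 alpha kinases were at or above 1 FPKM. *Eif2ak1* (HRI, activated when heme is short) had 13.9 ± 0.442 FPKM and *Eif2ak3* (PERK, the ER sensor) 13.1 ± 0.975 FPKM. *Eif2ak2* (PKR) followed with 5.78 ± 1.56 FPKM and *Eif2ak4* (GCN2, the sensor of uncharged tRNA) with 3.83 ± 0.996 FPKM. Each of the 4 was below *Sesn2*, and none was among the highest 1000 genes. Of 10 genes for eIF2, its exchange factor eIF2B and the phosphatase subunits that reverse phosphorylation, all 10 were at or above 1 FPKM, from *Eif2b2* (45.4 FPKM), *Eif2b5* (25.2 FPKM) and *Eif2s2* (20.7 FPKM) down to *Eif2b3* (3.65 FPKM), with a median of 17.6 FPKM. Of 6 ER stress sensors and processing proteases, 5 were at or above 1 FPKM. *Atf6b* was highest, followed by *Mbtps1* (28.0 FPKM), a protease that cleaves ATF6, and *Eif2ak3*. *Mbtps2*, the other listed protease, was the lowest of those detected, with 3.62 FPKM. Of the IRE1 genes, *Ern1* had 8.89 ± 0.316 FPKM, and *Ern2*, the form of gut epithelium, was listed at 0 in every replicate.

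The listed CREB, ATF and C/EBP genes outside the 10 were far less abundant than *Atf4*. Other bZIP families were not listed. Leaving aside *Atf6b*, given above, of 18 other CREB, ATF and C/EBP genes in the files, 10 were at or above 1 FPKM and none was among the highest 1000, with a median of 3.48 FPKM. The highest of the 18 were *Creb3l2* (33.9 FPKM), *Creb3* (28.5 FPKM) and *Jdp2* (28.0 FPKM). *Cebpe* was the lowest above 0, with 0.0533 FPKM, and *Creb3l3* and *Batf* were listed at 0 in every replicate. *Atf4* was thus several times as abundant as any of them, and as *Atf6b*, in length-scaled units.

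Genes under ATF4 were divided by role. Of 11 genes of amino acid synthesis and one-carbon metabolism, 9 were at or above 1 FPKM and 2 were among the highest 1000, with a median of 22.5 FPKM. *Shmt2* (91.1 FPKM), *Psat1* (72.4 FPKM) and *Mthfd2* (49.4 FPKM) were highest, and *Cbs*, of the transsulfuration pathway, was lowest with 0.0533 FPKM. Of 9 amino acid transporters, 7 were at or above 1 FPKM and 2 among the highest 1000. *Slc3a2* (167 FPKM) and *Slc7a5* (109 FPKM), which form the leucine transporter of the cell surface, led with *Slc6a9* (27.2 FPKM), and *Slc7a3* was lowest, with 0.06, 0.04 and 0.05 FPKM in replicates 1, 3 and 4. All 12 tRNA synthetases were at or above 1 FPKM and 4 were among the highest 1000, with a median of 36.2 FPKM, from *Gars* (108 FPKM), *Sars* (88.9 FPKM) and *Nars* (87.6 FPKM) to *Lars* (13.3 FPKM). A list of 19 targets of ATF4 and CHOP with other roles shares *Nars*, *Jdp2*, *Atf3*, *Cebpg*, *Cebpb* and *Ppp1r15a* with the lists above. Of these 19 genes, 15 were at or above 1 FPKM and 4, *Nars* included, were among the highest 1000. *Sqstm1* (410 FPKM), *Eif4ebp1* (129 FPKM) and *Map1lc3b* (96.0 FPKM), with roles in autophagy and translation, were highest. *Fgf21*, a secreted hormone, was lowest with 0.0167 FPKM. Levels under ATF4 thus ran from among the most abundant messages to near absence.

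Of 20 ER genes under ATF6 and XBP1, 19 were at or above 1 FPKM and 6 were among the highest 1000, with a median of 35.9 FPKM. The chaperones *Calr* (963 FPKM), *Hsp90b1* (275 FPKM) and *Hspa5* (225 FPKM) were highest, *Derl2*, of ER-associated degradation, was the lowest above 0 with 11.4 FPKM, and *Derl3* was listed at 0 in every replicate. All 7 mitochondrial chaperones and proteases linked to ATF5 were at or above 1 FPKM, with *Hspa9* (93.6 FPKM), *Hspe1* (53.6 FPKM) and *Hspd1* (51.6 FPKM) highest and *Yme1l1* (12.3 FPKM) lowest. Over all 114 listed genes in the files, 95 were at or above 1 FPKM, 83.3% against 44.1% of all genes.

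**Figure D5:**
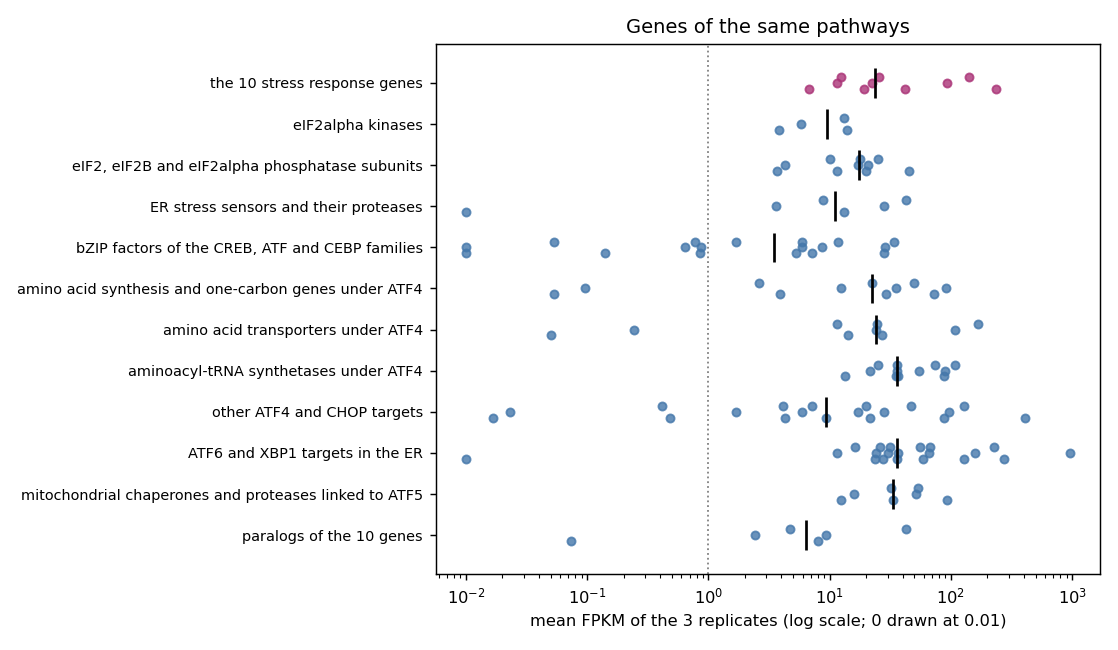
Mean FPKM over the 3 replicates (log axis, 0 drawn at 0.01) for each gene of the pathway lists, with the median of each list as a bar and 1 FPKM as a dotted line. The 10 stress response genes have a median of 23.8 FPKM, and the bZIP and other target lists hold most of the genes below 1 FPKM.

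The shift between replicates 3 and 4 was also followed in these lists. Of the 9 amino acid synthesis genes with at least 1 FPKM, 8 had more FPKM in replicate 3 than in 4 (median log2 ratio 0.33), against 51.3% of genes and a median of 0.02. With the GC trend removed 8 of 9 were still higher, with a median of 0.19, against 51.7% of genes and a median of 0.01. For the transporters it was 6 of 7 (median log2 ratio 0.31), and 4 of 7 with the trend removed (median 0.23). The tRNA synthetases were divided, with 7 of 12 higher in replicate 3, and 6 of 12 with the trend removed. The ER genes under ATF6 and XBP1 were split too, at 10 of 19 and 9 of 19. Of the other lists, the targets of ATF4 and CHOP had 8 of 15 genes higher in replicate 3, as deposited and with the trend removed, the bZIP genes 5 of 10 both ways, and the eIF2 and eIF2B genes 5 of 10 and 6 of 10. The ER sensors and proteases had 2 of 5 and 3 of 5, as had the paralogs. Fewer were higher among the mitochondrial genes linked to ATF5 (3 of 7 and 2 of 7) and the eIF2 alpha kinases (1 of 4 both ways).

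The gene most alike in level to each of the 10 was taken as the one at the smallest distance over the 3 replicates on the log2(FPKM + 1) scale. For *Atf4* it was *Degs1* (235.66, 246.83 and 238.83 FPKM), and for *Atf5* it was *Sdc3* (146.76, 166.60 and 93.74 FPKM). For *Ddit3* it was *Matr3* (19.50, 13.08 and 26.33 FPKM) and for *Nupr1* it was *Ednrb* (7.06, 5.29 and 7.54 FPKM). The others were *Atp5e* for *Asns*, *Golph3* for *Xbp1*, *Ciz1* for *Atf6*, *Arhgef40* for *Sesn2*, *Axin1* for *Chac1* and *2310047M10Rik* for *Trib3*. With 3 replicates such a likeness describes level and order only.

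Some features of the loci and the cells bear on these values. *Atf5* shares 82 exon bases (4.12% of its own) with *Nup62* and *Il4i1* on the opposite strand, and *Ddit3* shares 68 (3.97%) with *Mars*. The libraries were stranded, but whether strand was used in counting is not given in the sources used here, and the part of shared reads was not tested. No copy of 200 bases or more at 95% identity was found elsewhere in mm9 for the longest coding transcript of any of the 10 genes. Melanocyte markers summed to between 5793 and 6633 FPKM per replicate and 9 of 10 were at or above 1 FPKM in every replicate, the exception being *Kit* (0.680 FPKM). Markers of keratinocytes, leukocytes and endothelium summed to at most 1.61 FPKM each and those of fibroblasts to at most 1.85 FPKM, most of it from *Cd68* in leukocytes and from *Col1a1* in fibroblasts. *Cdkn2a*, the Ink4a-ARF gene, had 19.24, 16.49 and 24.32 FPKM in libraries labelled as Ink4a-ARF-/-, and a value per gene does not say whether these reads cover the deleted part.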

How the data were processed

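RNA-seq libraries of 3 melan-a replicates (stranded mRNA kit, 3 lanes each) were processed by the authors, who trimmed 10 bases, aligned reads to mm9 with STAR 2.3.0e, removed rRNA reads, counted them with HTSeq 0.5.3p3 on Ensembl release 67 and deposited FPKM values with a TMM scaling. The conversion to FPKM is not given in the sources used here. Gene models, symbols and GC content were taken from Ensembl release 65 on mm9, which named 22324 of the 22698 genes. Library sizes were recovered as the size at which low FPKM values of genes with 1 transcript give whole reads, on a grid of sizes, and came to 53900000, 47000000 and 66200000 scaled reads in replicates 1, 3 and 4 (133, 149 and 82 genes, mean distance from whole reads 0.0506, 0.0532 and 0.0626). In genes with several transcripts, the mean distance from whole reads was 0.0747, 0.0588 and 0.0487 with joined exons (5, 9 and 4 genes) and 0.121, 0.172 and 0.152 with the longest coding transcript (10, 21 and 4 genes, selected separately by expected reads). Replicates are separate samples in the labels, which do not tie them to separate cultures, so spreads may be partly technical.

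Means, SDs, CVs, ranks and ratios were computed without a test. GC trends were fitted by lowess (fraction 0.3) to log2 deviations of genes with at least 1 FPKM. The recovery of library sizes and the trend removal were tested on simulated data. The 10 genes and the lists were chosen with earlier results of these data known. Named genes are the 10 and, in each list, the 3 highest, the lowest above 0 and those at 0. The gene most alike to each of the 10, overlapping genes and *Cdkn2a* are also named. *Trib1*, *Chac2*, *Ern1*, *Kit*, *Cd68* and *Col1a1* were named after their values were seen. Of the listed symbols, 2 were not analysed here, and 1 marker list is not reported here. Copies were searched with blastn 2.17.0. Lowess came from statsmodels 0.14.6, run under Python 3.11.15, and figures from matplotlib 3.10.9. Alternatives were the median, other scalings, thresholds and pseudocounts, GC trend removal, protein-coding genes only, each replicate left out and, chosen after seeing the data, the length of the longest coding transcript.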

Additional observations from a re-analysis of the deposited data

How the results depend on the processing

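No paired analysis was possible because there is 1 group and no contrast between groups. The levels of all 10 genes stayed within their SD with the GC trend removed and after rescaling to the median gene. They did so too with the median in place of the mean and with each replicate left out. With 3 values these last alternatives cannot leave the SD, so they are no check. Rescaling each replicate to a sum of 1000000 changes the unit and moved all 10. With the length of the longest coding transcript, *Ddit3*, *Asns*, *Xbp1* and *Nupr1* moved, and so did the ratios of *Ddit3* to *Atf4* (0.155), *Asns* to *Atf4* (0.528) and *Xbp1* to *Atf6* (2.48). That of *Trib3* to *Ddit3* came to 0.366, within its SD, and the ranks of 7 genes moved. The number of genes with a CV above 10% was 6, fell to 3 with a limit of 20%, and was 4 to 7 with each replicate left out. CVs moved by over 1.5 times for 7 genes with the GC trend removed and for 6 without replicate 4, among them *Atf5*, *Trib3*, *Chac1* and *Sesn2*. Spreads over 3 replicates are imprecise at any depth.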
